A study of Mus musculus with 24 samples.

Results

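Unbound RNA of whole kidney 7 days after ischemia-reperfusion was compared with unbound RNA of sham-operated kidney, using all genes of the deposited expression table and the 6 libraries of these groups, 3 per group, out of 24 libraries in the series. Of the 40750 genes in the table, 13721 reached 1 RPKM (reads scaled to the length of the gene and the size of the library) in at least 3 libraries and were tested. All mice were male, on a mixed background, 8 to 10 weeks old, and carried 1 copy each of Kim1-GCE, a tamoxifen-activated Cre under the control of Kim1 (Havcr1), and of EGFPL10a, a tagged ribosomal protein that Cre switches on (Kim1-GCE+/-; EGFPL10a+/-). Sham mice carried both alleles too. Every mouse was given tamoxifen 6 h before and 24 h after surgery. In the injury groups both renal pedicles were clamped for 20 minutes and kidneys were taken at day 2, day 7 or day 14, while sham mice had the same operation without clamping. Kidney homogenate was passed over beads carrying an antibody against GFP. RNA held by the beads is the bound fraction, meant to come from cells that express the tagged ribosomal protein. The tag needs Kim1-driven Cre, so the number and kind of tagged cells can differ between sham and injured kidneys. The remaining RNA is the unbound fraction, which the labels equate with total kidney, and each library is 1 mouse.

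Transient loss of blood flow kills or damages tubule cells, above all in the proximal tubule, which reabsorbs most of the filtrate. Surviving cells dedifferentiate, switch on injury genes such as Havcr1 (Kim-1, a phagocytic receptor) and Lcn2, divide, and redifferentiate. Cells that fail to recover can keep an inflammatory program with Vcam1 and Ccl2, and macrophages, lymphocytes and matrix-producing fibroblasts accumulate around them. Whole-kidney RNA mixes all of these cells, and in it fewer cells of a type and less RNA per cell cannot be told apart.

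Depths inferred from the spacing of low RPKM values were 18.0 to 21.7 M reads in the 6 libraries, mitochondrial transcripts held 2.03% to 3.25% of the RPKM total, and log2 values correlated across genes within groups at 0.972 to 0.977 in sham and 0.978 to 0.979 at day 7. The third day 14 mouse stood apart from its group in unbound RNA (0.933 to 0.941). It is not part of the comparison with sham, but it enters the estimate of the spread when all 24 libraries share one. Markers of the tissue were present: Slc34a1, the phosphate transporter of the proximal tubule, was at 1256 to 1466 RPKM in sham and 1027 to 1089 RPKM at day 7, and Umod of the thick ascending limb was at 406 to 927 RPKM in sham and 624 to 881 RPKM at day 7.

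At day 7 the genes above the sham level included injury genes, chemokines, antigen presentation genes, interferon-stimulated genes and collagens, and fewer genes passed below it. In limma with the spread shared by all 24 libraries, 150 of 13721 genes (1.09%) passed an adjusted p of 0.05 (Benjamini-Hochberg over all tested genes, as for every adjusted p below), 125 higher (0.911%) and 25 lower (0.182%) at day 7. All but 3 of these calls were 2-fold or more on the scale log2(RPKM + 0.5), which understates changes of genes near or below 0.5 RPKM. In each of the 150 the 3 day 7 libraries lay outside the range of the 3 sham libraries, as did 38.1% of all tested genes. The count rested heavily on which libraries estimate the spread. It was 576 (4.2%) with the 12 unbound libraries, 2042 (14.9%) with these 6 alone and 970 (7.07%) without the third day 14 mouse, 876 higher (6.38%) and 94 lower (0.685%), and each of these fits kept all 150 genes. Counts of list members below are given for the fit on 24 libraries and then for the fit without the third day 14 mouse, an alternative chosen after seeing the data. The 13721 log2 folds had a median of 0.18. Scaling the libraries by median ratios moved this median to -0.02, and quantile normalization moved it to -0.04, so list medians are read against 0.18. The share of higher genes among the calls, 83.3%, was 74.9% and 71.3% under these scalings.

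**Figure D1:**
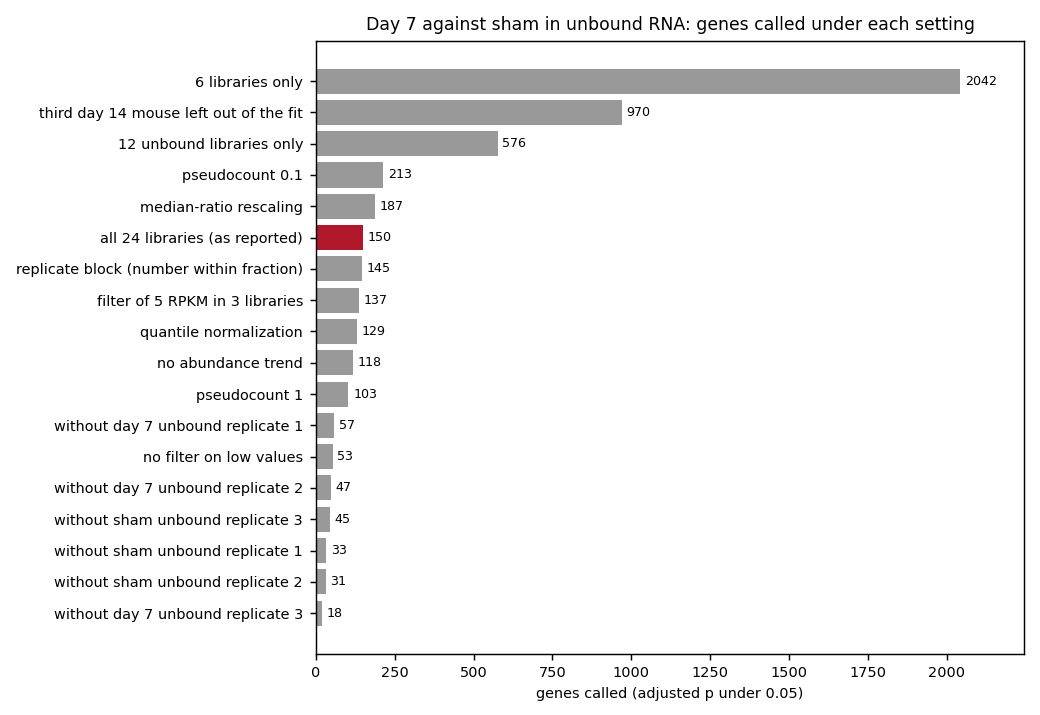
Number of genes called at an adjusted p under 0.05 between day 7 and sham in unbound RNA (horizontal axis, linear from 0) under each setting; the red bar is the fit on all 24 libraries with 150 calls. The bars run from 18 without the third day 7 library to 2042 when these 6 libraries alone set the spread.

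The rises were spread unevenly over the mice. The third day 7 library was the highest of the day 7 libraries for 92 of the 125 higher genes, the first for 21 and the second for 12. The same shares over all tested genes were not worked out. That library also had the most genes at 1 RPKM or more, 12257 against 11986 in the first and 11846 in the second. When each of the 6 libraries was left out in turn, between 18 and 57 genes were called: 18 without the third day 7 library, 57 without the first and 47 without the second, 33 without the first sham library, 31 without the second and 45 without the third. Each of these 6 fits kept the third day 14 mouse in the estimate of the spread and had fewer libraries in 1 group. All 150 genes kept their direction in the 6 fits, and 18 kept the call in each of them. Of these 18, 15 were higher at day 7, among them Ubd, Ccl2, Cxcl1, Vcam1, Krt20, C3, Il1f6, H2-DMb2, Defb36, Akr1b8, Aoc1, Kdelr3, Ugt2b37 and the microRNA gene Mir6358. The 3 that were lower were Serpina1d, Gm4737 and 2010005H15Rik. The other 132 genes lost the call in at least 1 of the 6 fits, and for 108 of those the highest adjusted p came without the third day 7 library. Among the genes that passed in 0 of the 6 fits were Lcn2, Relb, Lyz2, Cd74, Cdkn1a, Mki67 and Aqp4.

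Ubd and Cxcl1 were among the clearest of the 18. Ubd encodes FAT10, a ubiquitin-like modifier induced by TNF and interferon gamma. Its values were 2.28, 1.63 and 1.60 RPKM in sham and 30.4, 78.9 and 141 RPKM at day 7 (log2 fold 4.92, SE 0.55, adjusted p = 4.99e-05 in limma). The groups were far apart, with the third day 7 mouse highest and the first lowest. Cxcl1, a neutrophil-attracting chemokine, went from 1.03, 0.399 and 0.391 RPKM to 9.06, 11.04 and 28.3 RPKM (log2 fold 3.78, SE 0.44, adjusted p = 9.76e-05). Defb36, a beta-defensin, had 0.553, 0.305 and 0.114 RPKM in sham and 9.02, 7.79 and 20.2 RPKM at day 7 (log2 fold 3.87, adjusted p = 4.99e-05). Akr1b8, an aldo-keto reductase that clears aldehydes, rose from 4.21, 2.44 and 3.09 RPKM to 22.5, 23.7 and 41.8 RPKM. Aoc1, the diamine oxidase that degrades histamine and putrescine, rose from 1.54, 1.81 and 1.17 RPKM to 15.5, 16.6 and 42.8 RPKM. In Defb36, Akr1b8 and Aoc1, too, the third day 7 mouse was the highest and no day 7 value came near the sham range. Mir6358 was listed at 0 in all 3 sham and all 3 day 2 libraries and at 7.90, 21.5 and 26.3 RPKM at day 7.

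Tubule injury genes formed the list with the most calls. Of 33 tested members of 34, 13 were higher at day 7 and none was lower (24 and 0 without the third day 14 mouse); the list median was 1.68, and 30 members had day 7 libraries wholly above sham, against 30.5% of all tested genes. With 1 of the 6 libraries left out, between 3 and 9 members passed, the fewest without the third day 7 library. The summed level of the list was 1200 to 1288 RPKM in sham and 3560 to 7436 RPKM at day 7, with no overlap.

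Krt20, a keratin of injured and urothelial epithelium, was at 0.618, 0.715 and 0.359 RPKM in sham and 7.82, 9.84 and 24.8 RPKM at day 7 (log2 fold 3.62, SE 0.52, adjusted p = 0.00126). Vcam1, the adhesion molecule that binds leukocyte integrins, went from 0.762, 0.532 and 0.486 RPKM to 9.39, 12.3 and 26.6 RPKM (log2 fold 3.79, SE 0.55, adjusted p = 0.00135). Both genes kept the call whichever of the 6 libraries was left out. Havcr1 was at 4.32, 3.93 and 24.1 RPKM in sham and 38.1, 54.9 and 125 RPKM at day 7 (log2 fold 3.00, SE 0.61, adjusted p = 0.0229). The third sham kidney thus had more Havcr1 than the other sham kidneys, though less than any day 7 kidney. Havcr1 passed in 2 of the 6 fits that left out 1 library (highest adjusted p = 0.177). Spp1, the secreted matrix protein osteopontin, was the most abundant of the higher injury genes, at 328, 503 and 557 RPKM in sham and 2894, 1786 and 4270.5 RPKM at day 7 (log2 fold 2.63, adjusted p = 0.00508, and 0.0718 without the third day 7 mouse). Lcn2, the iron-siderophore carrier also known as NGAL, went from 6.07, 2.97 and 3.56 RPKM to 50.3, 15.8 and 34.6 RPKM (log2 fold 2.76, adjusted p = 0.043). Here the first day 7 mouse was the highest. The other members that rose were Krt18 and Vim (intermediate filaments), Cd44 (hyaluronan receptor), Timp1 (inhibitor of metalloproteinases), S100a6, Sprr1a, C3 and Sox9, the last a transcription factor of nephron progenitors and regenerating tubule, from 0.263, 0.598 and 0.451 RPKM to 4.74, 4.31 and 6.80 RPKM.

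**Figure D2:**
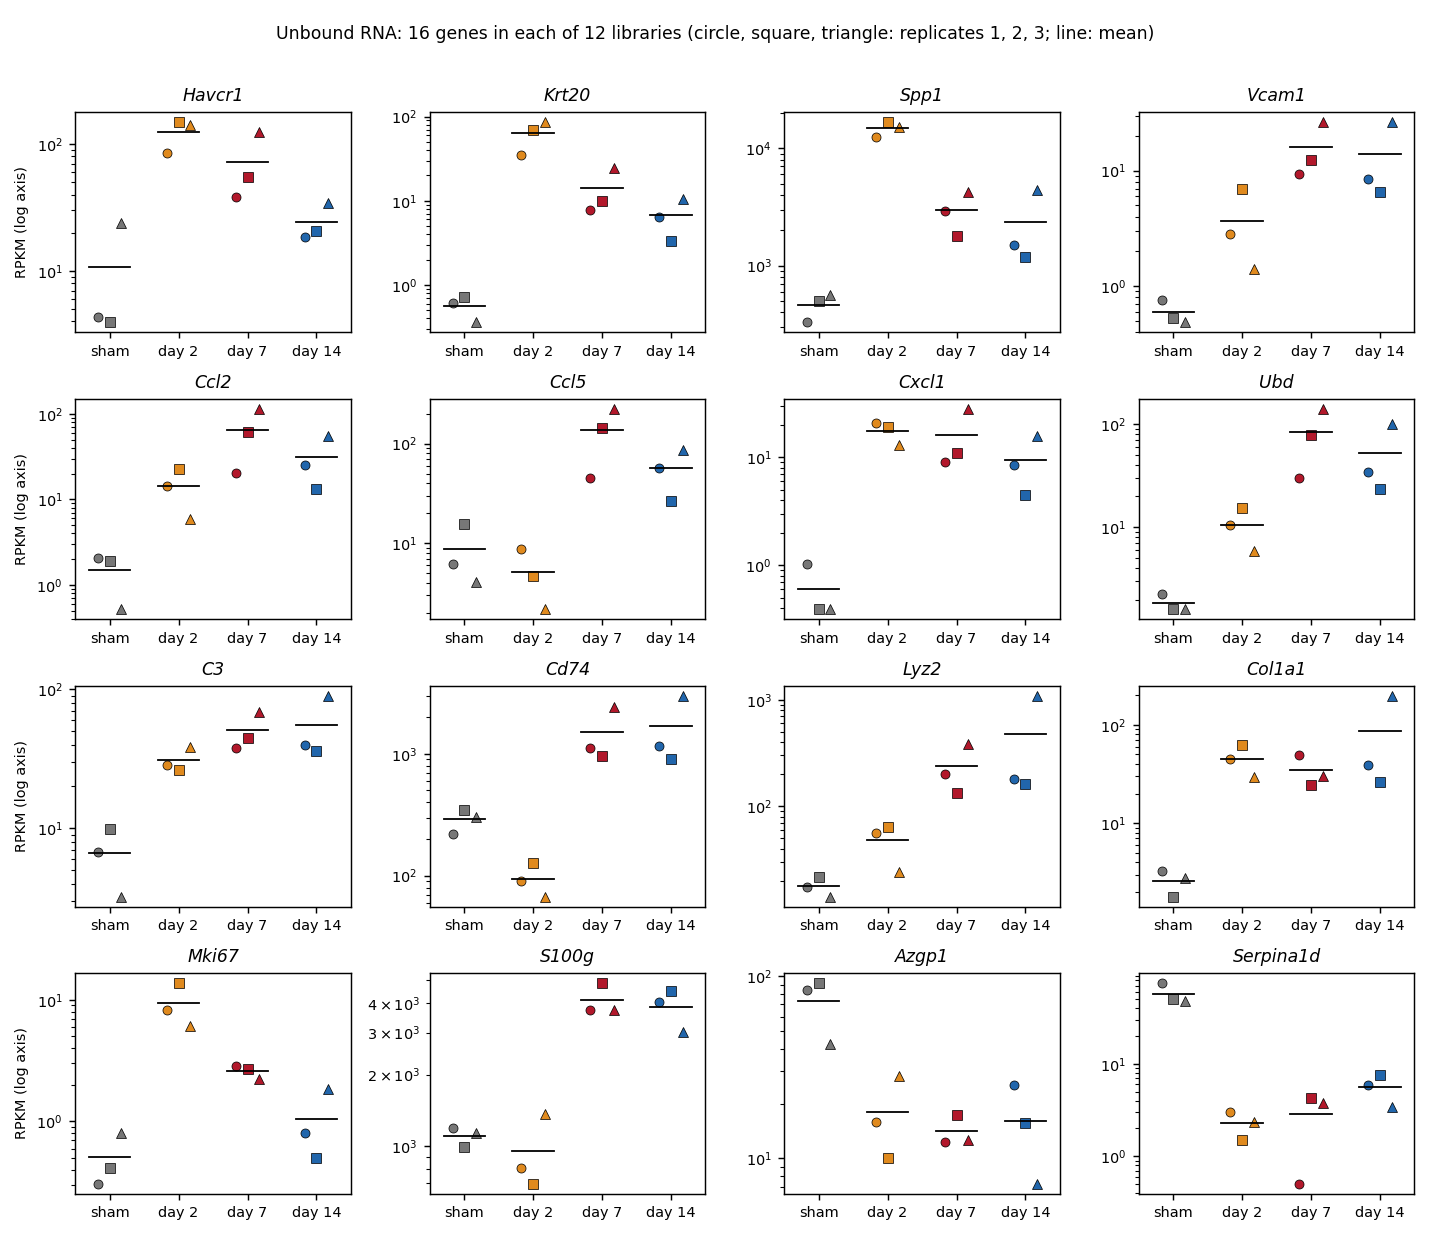
RPKM on a log axis of 16 genes in the 3 unbound libraries of each of sham and days 2, 7 and 14 (circle, square and triangle for replicates 1, 2 and 3, line for the mean of 3). In every panel the day 7 points lie on one side of the sham points, and in most rising genes the day 7 triangle is the highest point of its group; Havcr1 shows the third sham kidney at 24.1 RPKM.

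Chemokines had the highest list median, 2.33 over 23 tested members of 27. Of these, 6 members rose and none fell (17 and 0 without the third day 14 mouse, and 2 to 5 with 1 of the 6 libraries left out). Ccl2, the main attractant of monocytes through Ccr2, was at 2.05, 1.92 and 0.515 RPKM in sham and 20.3, 61.1 and 115 RPKM at day 7 (log2 fold 4.85, SE 0.70, adjusted p = 0.00126). Ccl5, which draws T cells and monocytes, was at 6.15, 15.7 and 4.05 RPKM in sham and 45.3, 144 and 223 RPKM at day 7 (log2 fold 3.85, SE 0.75, adjusted p = 0.0169, at most 0.147 with 1 library left out). For Ccl2 and Ccl5 alike the third day 7 mouse was the highest and the first the lowest, and the first still exceeded every sham mouse. Cxcl10, an interferon-induced ligand of Cxcr3, went from 1.77, 1.28 and 0.561 RPKM to 8.24, 10.6 and 21.1 RPKM, Ccl9 from 0.969, 1.26 and 0.385 RPKM to 5.25, 8.65 and 17.3 RPKM, and Cxcl5 from at most 0.0322 RPKM to between 1.05 and 5.39 RPKM. Members that missed the threshold included Cxcl16 (22.2 RPKM mean in sham and 56.9 RPKM at day 7, adjusted p = 0.0501), Ccl7 (0.307 and 13.2 RPKM, adjusted p = 0.0568) and Cxcl2 (0.0332 and 4.40 RPKM, adjusted p = 0.0568).

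In the NF-kB and TNF list, 4 of 28 tested members of 33 rose and none fell (14 and 0 without the third day 14 mouse, 2 or 3 with 1 of the 6 libraries left out), with a median of 1.14. They were Ubd, Vcam1, Relb, a subunit of the non-canonical NF-kB dimer, and Nfkbie, an inhibitor that NF-kB itself induces. Relb was at 1.21, 1.16 and 0.960 RPKM in sham and 4.98, 5.45 and 7.28 RPKM at day 7 (log2 fold 1.98, SE 0.42, adjusted p = 0.0278). Nfkbie went from 2.14, 2.81 and 1.30 RPKM to 5.70, 6.86 and 16.3 RPKM (log2 fold 1.87, adjusted p = 0.0293). Both sets of day 7 values lay above sham, those of Relb closer together than those of Nfkbie. Icam1, which like Vcam1 binds leukocytes, had 3.08, 1.74 and 2.54 RPKM in sham and 4.91, 7.03 and 10.5 RPKM at day 7, with an adjusted p of 0.0768.

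Interferon-stimulated genes included 7 risers and no faller among 35 tested (24 and 0 without the third day 14 mouse, 0 to 3 with 1 of the 6 libraries left out). The median was 1.15 and all 35 log2 folds were above 0, where the median of all genes was 0.18. In 29 members the day 7 libraries lay wholly above sham, against 30.5% of all tested genes. The summed level was 177 to 225 RPKM in sham and 439.95 to 801 RPKM at day 7. Isg15, a ubiquitin-like antiviral modifier, was at 7.53, 6.10 and 4.09 RPKM in sham and 24.1, 25.3 and 44.8 RPKM at day 7 (log2 fold 2.29, SE 0.45, adjusted p = 0.0184). Ifit1, which binds foreign RNA caps, had 1.13, 1.54 and 1.44 RPKM in sham and an even 4.9997, 5.96 and 6.78 RPKM at day 7 (log2 fold 1.77, adjusted p = 0.0373). Oas1a, a sensor of double-stranded RNA, went from 1.0985, 1.16 and 1.05 RPKM to 3.71, 5.16 and 8.06 RPKM. The others were Oas2, Zbp1, Bst2 and Cxcl10. With 1 library left out, Isg15 passed in 3 of the 6 fits and Ifit1 and Oas1a in 0. The highest adjusted p was 0.147 for Isg15, 0.194 for Ifit1 and 0.236 for Oas1a.

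Promoters of members of the chemokine, NF-kB and interferon lists are shown with matches to the motifs of 2 families of transcription factor. Cxcl1 is from the chemokine list, and Cxcl10 is on the chemokine and interferon lists. The RefSeq table (GRCm38.p6) held the 300 bases from 250 before to 50 after the start of 9908 of the tested genes, and of 92 of the 125 that rose; none is shown for Ccl2, Ccl5, Vcam1 and Relb. The 6 printed here were chosen because they hold a match; Nfkbie and Icam1 of the NF-kB list were searched too and held no kB match in the 300 bases. Both strands were searched for the kB motif, for the interferon-stimulated response element written TTTCNNTTTC and for the AP-1 motif TGANTCA. Each line below gives 100 bases on the strand of the gene, 5′ to 3′, with kB matches (first 3 lines) or TTTCNNTTTC matches on either strand (last 3 lines) in capitals; adjacent matches overlap and run together.
Cxcl1, chr5:90891129-90891228, plus strand: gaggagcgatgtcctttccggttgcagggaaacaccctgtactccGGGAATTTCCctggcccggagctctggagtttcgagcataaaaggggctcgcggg
Cxcl10, chr5:92348939-92349038, minus strand: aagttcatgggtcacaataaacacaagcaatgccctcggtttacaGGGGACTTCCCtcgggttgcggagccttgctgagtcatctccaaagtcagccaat
Ubd, chr17:37193792-37193891, plus strand: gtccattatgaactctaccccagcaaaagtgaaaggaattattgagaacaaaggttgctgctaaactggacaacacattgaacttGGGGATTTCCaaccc
Isg15, chr4:156200842-156200941, minus strand: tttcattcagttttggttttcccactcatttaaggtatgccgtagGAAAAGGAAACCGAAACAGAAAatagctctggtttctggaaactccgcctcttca
Ifit1, chr19:34640740-34640839, plus strand: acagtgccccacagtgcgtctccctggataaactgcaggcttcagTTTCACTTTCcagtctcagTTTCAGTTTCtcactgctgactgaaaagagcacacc
Oas1a, chr5:120907526-120907625, minus strand: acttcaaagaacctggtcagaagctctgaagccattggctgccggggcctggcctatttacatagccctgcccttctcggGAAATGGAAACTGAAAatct

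The kB match began 71 bases before the start of Cxcl1 and 15 bases before that of Ubd, and Cxcl10 held 2 overlapping matches from base -104. A kB match was present in 18 of the 92 promoters of genes that rose (19.6%), in 1 of 18 of those that fell (5.56%) and in 8.30% of all 9908. TTTCNNTTTC was present in 7 of the 92 (7.61%) against 3.67% of all, and the AP-1 motif in 10 of the 92 (10.9%) against 6.43% of all. These shares describe the letters of the windows and show nothing of binding.

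Of 11 tested MHC class II genes of 12, which present antigen to helper T cells, 2 rose and none fell (8 and 0 without the third day 14 mouse, 1 with any of the 6 libraries left out). All 11 had day 7 libraries wholly above sham, against 30.5% of all tested genes, and the median was 2.27. H2-DMb2, a chaperone of peptide loading, went from 0.151, 0.528 and 0.280 RPKM to 4.20, 5.75 and 8.01 RPKM (log2 fold 2.97, SE 0.44, adjusted p = 0.00151). Cd74, the invariant chain, was the most abundant member, with 218, 347 and 304 RPKM in sham and 1118, 955 and 2414 RPKM at day 7 (log2 fold 2.27, SE 0.55, adjusted p = 0.0496). H2-Ab1 (45.9 and 234 RPKM, adjusted p = 0.0524) and H2-Aa (56.1 and 339.8 RPKM, adjusted p = 0.0616) missed the threshold. None of 15 tested MHC class I and antigen processing genes passed (7 higher without the third day 14 mouse), with a median of 0.87. In the complement list of 21 tested members, C3, the central component, rose from 6.72, 9.88 and 3.23 RPKM to 38.1, 44.7 and 68.9 RPKM (log2 fold 2.92, adjusted p = 0.00151), while Cfb, factor B of the alternative pathway, fell from 2.93, 1.90 and 4.56 RPKM to 0.914, 0.425 and 0.863 RPKM (log2 fold -1.52, adjusted p = 0.0412, at most 0.206 with 1 library left out). Of the 21 log2 folds 18 were above 0, and the lowest, -3.03, belonged to a member that did not pass. Without the third day 14 mouse 12 complement genes were higher and 1 was lower.

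Markers of macrophages moved with these lists. Only Lyz2, lysozyme M, passed among 23 tested of 25, from 17.5, 21.6 and 14.2 RPKM to 202, 132 and 383 RPKM (log2 fold 3.60, SE 0.87, adjusted p = 0.0496); 21 members passed without the third day 14 mouse, whose own Lyz2 level of 1086 RPKM was far above the 178 and 161 RPKM of its group. The list median was 2.17, and 22 members had day 7 libraries wholly above sham, against 30.5% of all tested genes. The summed level was 93.3 to 146 RPKM in sham and 568 to 1216 RPKM at day 7. The defining markers Adgre1 (F4/80) at 0.574, 1.07 and 1.30 RPKM in sham and 4.96, 3.497 and 7.29 RPKM at day 7, and Cd68 at 4.37, 3.74 and 3.90 RPKM in sham and 15.98, 8.88 and 26.7 RPKM at day 7, did not pass (adjusted p = 0.119 and 0.22). The third day 7 kidney, highest in most of the chemokine and injury genes, was also the highest in Lyz2, Cd68 and Adgre1. The part of these cells in the rises of chemokines, class II and interferon genes was not tested. Of other leukocyte lists, the dendritic cell list had 1 riser of 7 tested (Bst2, also an interferon-stimulated gene), and T and NK cells (11 tested), B and plasma cells (7) and neutrophils (5) had none. Without the third day 14 mouse 3 dendritic cell, 2 T and NK cell, 1 B and plasma cell and 1 neutrophil marker were higher and none was lower. In that fit 6.38% of all tested genes were higher. Summed levels of T and NK markers were 18.5 to 29.4 RPKM in sham and 29.8 to 49.3 RPKM at day 7, with Cd3e at 0.700 and 1.12 RPKM; neutrophil markers were at 15.6 to 61.2 RPKM and 20.6 to 74.7 RPKM.

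**Figure D3:**
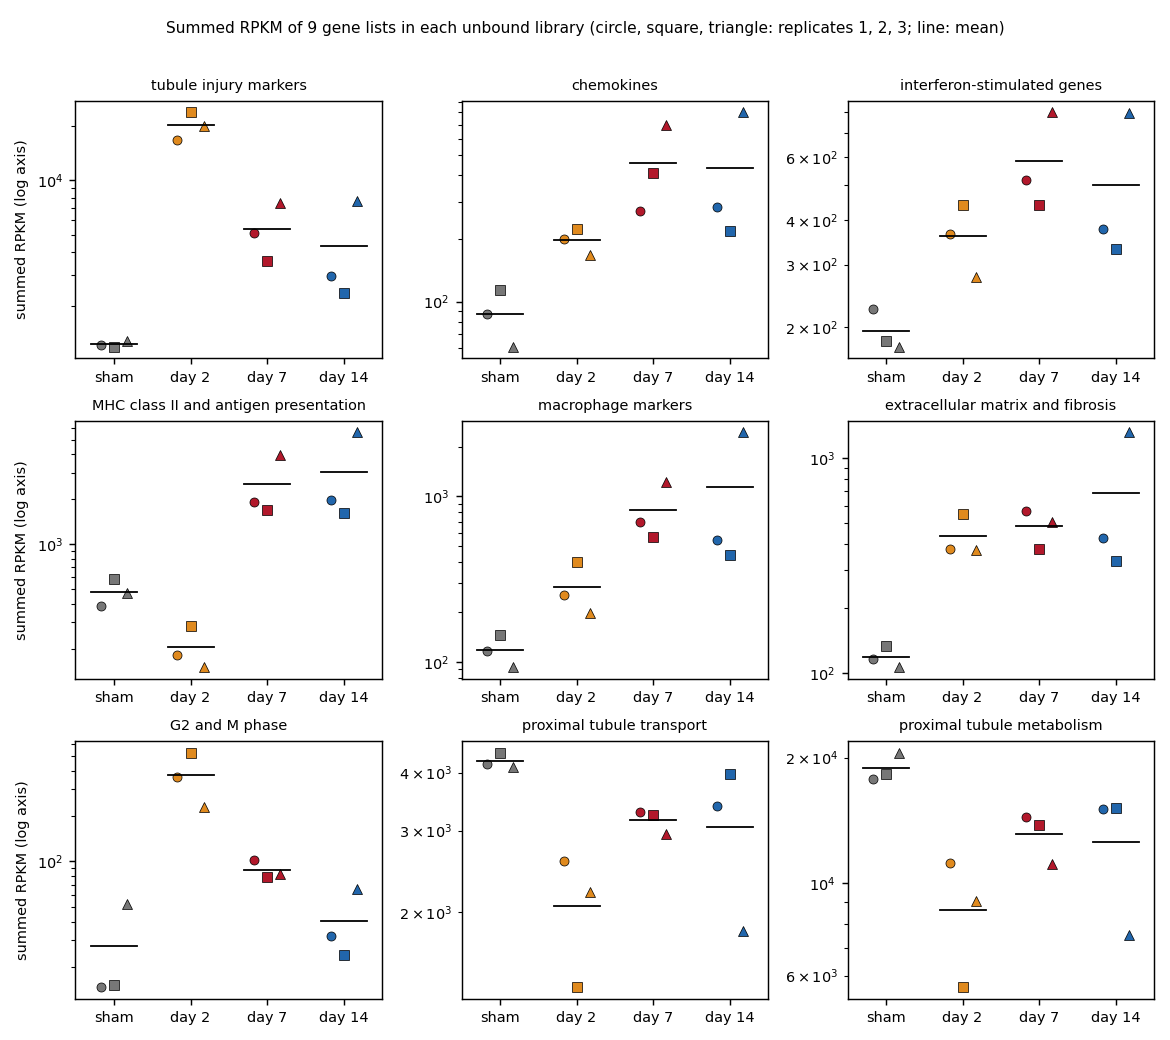
Summed RPKM of 9 gene lists on a log axis in each unbound library of sham and of days 2, 7 and 14 (circle, square and triangle for replicates 1, 2 and 3, line for the mean). Injury markers and macrophage markers at day 7 lie wholly above sham, proximal tubule lists wholly below it, and the third day 14 library stands apart from the other day 14 libraries.

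Matrix genes had day 7 libraries wholly above sham for each of the 30 tested members of 34, against 30.5% of all tested genes, with a median of 1.45. Col1a1 and Col4a1 passed (22 members and none lower without the third day 14 mouse). Col1a1, a chain of fibrillar collagen I, was at 3.25, 1.79 and 2.78 RPKM in sham and 49.7, 24.5 and 30.0 RPKM at day 7 (log2 fold 3.47, SE 0.82, adjusted p = 0.0449, at most 0.181 with 1 library left out). Unlike the chemokines it was highest in the first day 7 mouse. Col4a1, of basement membrane, went from 14.4, 15.9 and 9.24 RPKM to an even 49.8, 43.2 and 47.7 RPKM (log2 fold 1.82, adjusted p = 0.0321). Col3a1 (1.0996 and 16.1 RPKM) had an adjusted p of 0.068. Among 23 tested proteases and inhibitors, Timp1 rose from 2.45, 1.12 and 0.420 RPKM to 27.1, 14.9 and 32.4 RPKM and Mmp2, gelatinase A, from 0.239, 0.673 and 0.438 RPKM to 7.83, 3.99 and 7.04 RPKM (adjusted p = 0.0104 and 0.0373); none fell, and 15 were higher without the third day 14 mouse. None of 17 fibroblast and pericyte markers passed (7 higher without the third day 14 mouse), with a median of 0.89; Acta2, smooth muscle actin, had 14.2, 8.54 and 15.3 RPKM in sham and 46.2, 28.6 and 48.9 RPKM at day 7 (adjusted p = 0.159).

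Of 34 tested cell division genes of G2 and M phase out of 35, 6 rose and none fell (17 and 0 without the third day 14 mouse, but 0 to 4 with 1 of the 6 libraries left out), with a median of 1.28: Mki67, Ccnb2, Nusap1, Tpx2, Kif23 and Ube2c. Mki67, the proliferation antigen Ki-67, was at 0.308, 0.415 and 0.809 RPKM in sham and 2.85, 2.69 and 2.25 RPKM at day 7 (log2 fold 1.64, SE 0.39, adjusted p = 0.043). The day 7 kidneys were close to each other, and the third was not the highest. The third sham kidney was the highest of sham in Mki67, as it was in Ccnb2 (5.91 RPKM, against 1.21 and 0.648 RPKM) and in the sum of the list, 52.4 RPKM against 14.7 and 15.1 RPKM; day 7 sums were 79.2 to 102 RPKM. None of 31 G1 and S phase genes passed (4 higher without the third day 14 mouse; median 0.71). The p53 target Cdkn1a, an inhibitor of the cell cycle, rose from 9.90, 4.49 and 3.19 RPKM to 23.1, 20.0 and 30.0 RPKM (log2 fold 2.09, adjusted p = 0.0496), and Phlda3, another p53 target, from a mean of 3.03 to 12.2 RPKM (adjusted p = 0.0278), 2 of 25 tested. Among 18 immediate early and AP-1 genes, Atf3 (0.777 and 6.58 RPKM) and Maff (0.629 and 3.41 RPKM) rose, and 9 did so without the third day 14 mouse. In 2 more lists 1 member rose: Ankrd1, a YAP target, from 1.07 to 12.2 RPKM, and Akr1b8 of the NRF2 list. Sox9 also stands on the nephron development list. With 1 of the 6 libraries left out, none of the matrix or macrophage members passed in any fit, and 0 or 1 member each of the protease, p53 and AP-1 lists did. Those fits still held the third day 14 mouse in the spread. Without that mouse and with all 6 libraries, 22 matrix and 21 macrophage members passed.

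The genes that fell included enzymes of metabolism and did not gather in 1 list. Serpina1d had 74.8, 50.2 and 47.8 RPKM in sham and 0.505, 4.24 and 3.78 RPKM at day 7 (log2 fold -4.38, SE 0.52, adjusted p = 0.000107); it belongs to a cluster of near-identical antitrypsin genes, so its reads may be shared among copies. Azgp1, a secreted zinc-binding glycoprotein, fell from 84.1, 91.7 and 42.5 RPKM to 12.4, 17.2 and 12.7 RPKM (log2 fold -2.27, adjusted p = 0.0104). Cyp2d9, a male-predominant cytochrome P450 with close paralogs, fell from 97.3, 117 and 52.7 RPKM to 10.4, 28.7 and 14.6 RPKM (adjusted p = 0.0242). Aqp4, the basolateral water channel of the collecting duct and the deepest proximal tubule, fell from 12.2, 20.2 and 11.2 RPKM to 2.62, 3.25 and 3.41 RPKM (log2 fold -2.02, adjusted p = 0.0363). The groups of Azgp1, Cyp2d9 and Aqp4 were separate too, with the third sham mouse the lowest of sham in each. Ugt3a1, Ces2c, Retsat, Cnnm4, Fam107a and Dhrs3 fell as well, Dhrs3, a retinal reductase, from a tight 289.8, 282 and 300.1 RPKM to 127, 111 and 121 RPKM (log2 fold -1.28, SE 0.28, adjusted p = 0.0293, at most 0.147 with 1 library left out).

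Proximal tubule transport, metabolic and fatty acid oxidation lists had medians below that of all genes, with few single genes past the threshold. None of 35 transport genes passed (1 lower without the third day 14 mouse, 8 lower with the 6 libraries alone, where 2.49% of all genes were lower); the median was -0.32 and 13 members had day 7 libraries wholly below sham, against 7.63% of all genes. Their summed level was 4114 to 4416 RPKM in sham and 2946 to 3292 RPKM at day 7. Of 39 metabolic genes 1 fell, Ugt3a1 (median -0.51; 4 lower and 1 higher without the third day 14 mouse), and their sum went from between 17807 and 20554 RPKM to between 11089 and 14440 RPKM. Of 32 fatty acid oxidation genes 1 fell (median -0.38; 21 wholly below sham). The sodium-glucose transporter Slc5a2 (44.4 and 37.8 RPKM), the endocytic receptor Lrp2 (57.2 and 35.7 RPKM) and Slc34a1 (1339 and 1066 RPKM) had adjusted p values of 0.847, 0.384 and 0.733. Brush border peptidases and enzymes had a median of -0.03, with 4 of 19 wholly below sham and none past the threshold in either fit. Medians of other nephron segments were -0.21 for 13 thick ascending limb genes, 0.0033 for 11 distal convoluted tubule genes, 0.08 for 10 principal cell genes, -0.09 for 13 intercalated cell genes and 0.23 for 12 podocyte genes, and of all these only Aqp4 passed (1 podocyte gene was higher as well without the third day 14 mouse). None of 16 endothelial markers passed (median 0.37). The thick ascending limb thus lay closer to proximal tubule transport than to the median of all genes. Under median-ratio rescaling, with a median of all genes of -0.02, the medians became -0.55 for proximal tubule transport, -0.44 for thick ascending limb, -0.22 for distal convoluted tubule, -0.13 for principal cells, -0.26 for intercalated cells and 0.087 for podocytes. Those of p53, YAP, nephron development and NRF2 lists, each with 1 or 2 risers, became 0.26, 0.12, 0.14 and -0.03.

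**Figure D4:**
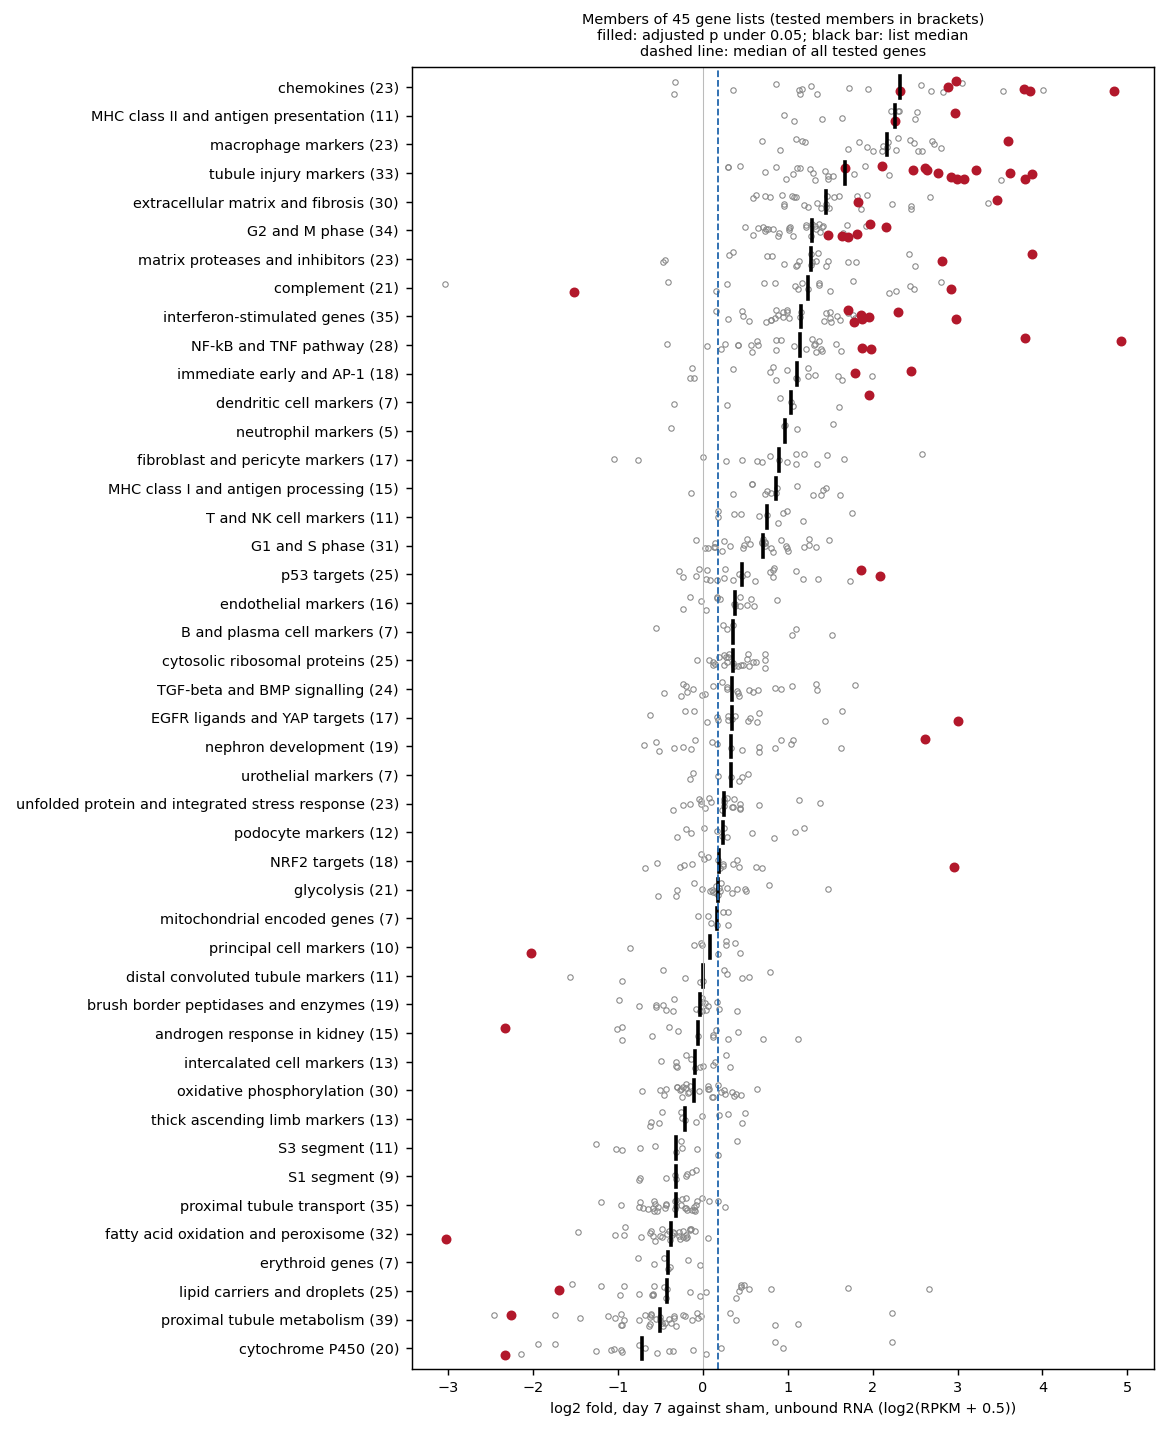
Log2 fold of day 7 against sham in unbound RNA (horizontal axis) for each tested member of 45 gene lists, ordered by list median (black bars); filled red points passed an adjusted p of 0.05, open points did not, and the dashed line is the median of all tested genes, 0.18. Chemokines, MHC class II and macrophage markers have medians of 2.33, 2.27 and 2.17, and tubule injury markers hold 13 filled points.

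Compared directly with day 2, day 7 differed in 482 genes (3.51%), 232 higher (1.69%) and 250 lower (1.82%). Division genes were lower than at day 2 in 30 of 34 G2 and M phase and 18 of 31 G1 and S phase members, with medians of -1.70 and -1.51 against 0.0041 for all genes; Mki67 was at 8.20, 13.7 and 6.08 RPKM at day 2, above each day 7 kidney. Of 33 injury genes 5 were lower and 1 was higher. Spp1 had 12429, 16888 and 15168 RPKM at day 2 (log2 fold of day 7 against day 2 -2.39, adjusted p = 0.00527), Krt20 35.4, 69.4 and 87.2 RPKM (-2.22, adjusted p = 0.0202), and Lcn2 157, 231 and 258 RPKM (-2.78, adjusted p = 0.0191). These 3 genes were thus between sham and day 2 at day 7, in values that did not overlap with either. Vcam1 was the injury gene that went the other way, with 2.82, 6.87 and 1.401 RPKM at day 2 (log2 fold 2.07, adjusted p = 0.0402). Antigen presentation genes differed in the same sense: 6 of 11 MHC class II genes were higher than at day 2 and none lower (median 2.13), Cd74 having had 90.2, 127 and 67.4 RPKM at day 2, below every sham kidney (log2 fold 3.90, adjusted p = 0.000429). Of 23 chemokines 1 was higher and 1 lower than at day 2. The lower one was Ccl20 (log2 fold -2.24, adjusted p = 0.0229), and the higher one, Ccl5, had 8.75, 4.64 and 2.16 RPKM at day 2 (log2 fold 4.51, adjusted p = 0.00241) and Ubd 10.4, 15.4 and 5.97 RPKM (log2 fold 2.76, adjusted p = 0.00711), whereas Cxcl1 had 20.8, 19.1 and 13.1 RPKM, overlapping with day 7 (adjusted p = 0.838). Of proximal tubule genes, 5 of 35 transport, 1 of 9 S1 segment and 5 of 11 S3 segment members were higher than at day 2 and none was lower. Of 39 metabolic genes 4 were higher and 1 lower, and 3 of 32 fatty acid oxidation genes were lower and none higher (median -0.32). Slc34a1 had been at 572, 235 and 231 RPKM (log2 fold 1.76, adjusted p = 0.015). NRF2 targets were lower in 8 of 18.

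Between day 14 and day 7 a single gene passed among 13721 (0.00729%), with 352 at an unadjusted p under 0.05. It was Gdpd3, a lysophospholipase D of the glycerophosphodiesterase family, with 26.5, 26.5 and 40.2 RPKM at day 7 and 8.03, 8.21 and 4.87 RPKM at day 14 (log2 fold of day 14 against day 7 -2.07, adjusted p = 0.0157). The day 7 values of Gdpd3 also exceeded those of sham (10.2, 14.0 and 16.4 RPKM) without passing (adjusted p = 0.0674), and it was higher than at day 2 (log2 fold 1.25, adjusted p = 0.0259). Its call against day 14 was lost in 5 of the 6 fits that left out 1 library of the groups. A low count here does not show that the groups are alike. With only the unbound library of the third day 14 mouse left out, no gene passed. That mouse lay above its group in several genes: Vcam1 was at 8.46, 6.49 and 26.6 RPKM, Col1a1 at 38.8, 26.4 and 197 RPKM and Cd74 at 1158, 905 and 2983 RPKM at day 14. The comparisons of day 2, day 7 and day 14 with sham share the same 3 sham libraries, so their calls are given side by side only. Of the 125 genes higher at day 7, day 7 had the highest of the 4 unbound means for 69, day 2 for 39 and day 14 for 17. These genes were selected by their day 7 values, which favours day 7 in such a count, so it does not show when they peak. In the direct comparisons 22 of the 125 were higher and 11 lower than at day 2, and 0 passed between day 14 and day 7. Of the 25 lower genes, selected in the same way, the lowest mean was at day 2 for 12, at day 7 for 11 and at day 14 for 2.

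The change in unbound RNA was set against that in bound RNA of the same kidneys by the interaction of fraction and injury. It passed for 20 genes (0.146%), 12 with the higher (0.0875%) and 8 with the lower change (0.0583%) in unbound RNA. The share with the higher change, 60%, was 78.6% after median-ratio scaling and 43.8% after quantile normalization. Same-numbered bound and unbound libraries deviated together from their group means (r = 0.27 to 0.42 over genes), so the mouse was also fitted as a block, which gave 722 genes (5.26%), 388 higher (2.83%) and 334 lower (2.43%). Of the 125 genes higher at day 7 in unbound RNA, 20 passed with the block, 13 with the smaller rise in unbound RNA and 7 with the larger. Havcr1 rose by a log2 fold of 3.00 in unbound and 5.81 in bound RNA (difference -2.81, adjusted p = 0.147, and 0.0189 with the mouse block), Ccl2 by 4.85 and 6.83 (-1.99, 0.313 and 0.0189), Ubd by 4.92 and 6.77 (-1.85, 0.237 and 0.0308), Cdkn1a by 2.09 and 3.82 (-1.73, 0.236 and 0.037) and Spp1 by 2.63 and 3.95 (-1.32, 0.296 and 0.0483). These 5 injury and inflammation genes thus changed more in bound RNA in the fit with the mouse block. Since Kim1-driven Cre switches on the tag, the cells behind bound RNA can differ between sham and day 7. The part of such a difference in the bound changes, here and in the lists below, was not tested. Lcn2 was the reverse, with 2.76 in unbound and 0.36 in bound RNA (2.40, adjusted p = 0.202, and 0.0199 with the mouse block), as was Ifit1, with 1.77 and 0.27 (1.503, 0.201 and 0.0371). For Krt20 (-1.17), Vcam1 (-0.36), Cxcl1 (-1.16), C3 (-0.66) and Lyz2 (0.66) the difference passed in neither fit, with adjusted p between 0.351 and 0.847 without and between 0.0651 and 0.457 with the block. In bound RNA, 3116 genes passed between day 7 and sham (22.7%), 2080 higher (15.2%) and 1036 lower (7.55%), among them 105 of the 125 that rose in unbound RNA.

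By list, the median of the difference between the fractions was largest for principal cell markers (1.86) and podocyte markers (1.61), and on the other side for the S3 segment (-1.18) and ribosomal proteins (-1.03). The values rested in part on the third sham bound library: without it they were 1.005, 0.97, -1.03 and -1.23. S3 markers had a median of -0.32 in unbound and 0.68 in bound RNA. Principal cell markers had a median of 0.08 in unbound and -1.73 in bound RNA, where 9 of 10 fell, podocyte markers 0.23 and -1.35 (7 of 12 fell), and thick ascending limb markers -0.21 and -1.11 (7 of 13 fell, 1 rose). In the interaction with the mouse block, 3 of 10 principal cell, 3 of 12 podocyte and 1 of 13 thick ascending limb genes passed with the higher change in unbound RNA, and 1 thick ascending limb gene with the lower. Of 25 cytosolic ribosomal proteins, 22 rose in bound RNA (median 1.39) and none passed in unbound RNA (median 0.35), though only 2 passed the interaction with the block, both with the lower change in unbound RNA; many have processed pseudogenes that can share reads. Of 35 proximal tubule transport genes, 7 passed with the lower change in unbound RNA, the medians being -0.32 in unbound and 0.26 in bound RNA.

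**Figure D5:**
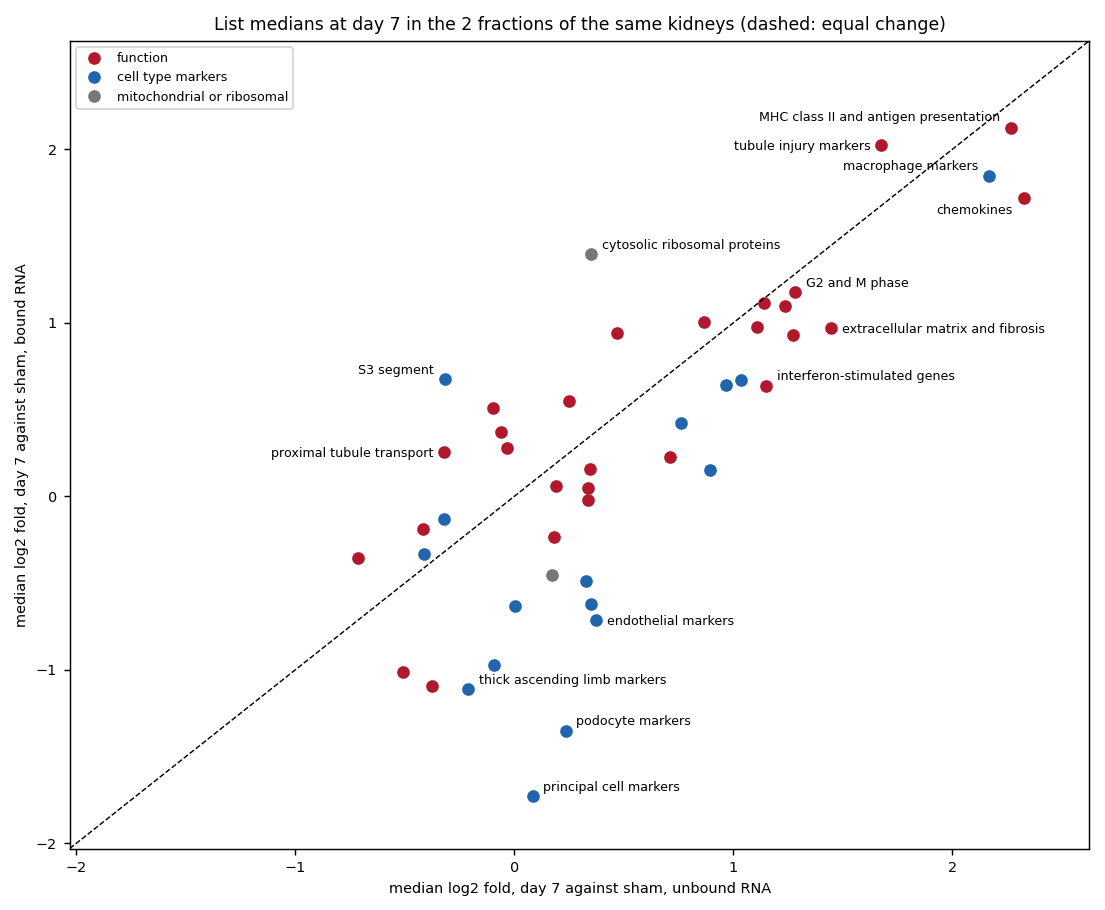
Median log2 fold of day 7 against sham for 45 gene lists in unbound RNA (horizontal axis) and bound RNA (vertical axis), coloured by kind of list; the dashed line marks equal change. Chemokines, MHC class II, macrophage and injury lists lie at the upper right, and principal cell (0.08 and -1.73) and podocyte markers (0.23 and -1.35) lie below the line.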

How the data were processed

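RNA of 12 mouse kidneys was sequenced as a bound and an unbound library each (Low Input RNA kit), 24 libraries in 8 groups of 3 taken from the labels. STAR 2.0.4b (alignment), featureCounts 1.4.5 (counting) and edgeR (RPKM) are named in the submitters' processing notes. The build was not given in the sources used here; RPKM are the authors' deposited values, in 41831 lines for 40750 genes; 1081 identical repeats were dropped. RPKM are no counts, so no count test was used. Exon lengths from GENCODE M21 brought 74.8% to 77.0% of low values of the 6 libraries to whole reads within 0.02, which gave the depths.

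The values log2(RPKM + 0.5) of the 13721 genes that reached 1 RPKM in 3 or more libraries were fitted by group (limma 3.58.1, R 4.3.3), with trended empirical Bayes and no block. Day 7 was compared with sham, day 2 and day 14 in unbound RNA, and its change from sham with that in bound RNA. Calls have an adjusted p under 0.05 (Benjamini-Hochberg over all genes). On simulated data for day 7 against sham with 13721 genes, 31% of 100 2-fold and 81% of 100 4-fold changes were recovered, with 7 false calls. The simulated noise was independent between libraries, with the same spread in all groups for a given gene. It held no link between libraries of a mouse and no outlying mouse, so these shares may differ in the real data. P-values rest on the spread within groups of 3 libraries, pooled over all 8 groups of both fractions. Without a block, the bound and unbound libraries of a mouse were treated as independent.

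Gene lists, comparisons and the naming rule were chosen with earlier results of these data known. The rule takes the 12 largest rises and 12 largest falls of at least 5 RPKM without overlap, up to 5 members of each list by p, and fixed genes; genes that kept the call with any library left out were named as well. Bound and unbound libraries of one mouse share its number, and in sham and day 7 they deviated together from their groups (r = 0.27 to 0.42 over genes), so the mouse was fitted as a block for comparisons of fractions. Alternatives were other pseudocounts, filters, scalings, variance model, libraries and a replicate block. Some genes the rule selects are not reported here.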

Additional observations from a re-analysis of the deposited data

Results flagged for a closer look

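Spire2, an actin nucleator, changed differently in the fractions by a tested interaction. The interaction tests the difference and not whether the directions are opposite. In unbound RNA Spire2 was at 2.27, 1.75 and 1.30 RPKM in sham and 4.01, 3.86 and 3.19 RPKM at day 7 (log2 fold 0.90, adjusted p = 0.0242 in limma). This rise passed in 1 of the 6 fits that left out 1 library (highest adjusted p = 0.135). In bound RNA of the same kidneys its log2 fold was -1.28 (adjusted p = 0.00016). The difference was 2.18 on the log2 scale (adjusted p = 0.000729, and 0.00214 with the mouse as a block). It was the only gene called both between day 7 and sham in unbound RNA and in the interaction without the block.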

How the results depend on the processing

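Which libraries set the spread moved the counts most. For 150 genes between day 7 and sham, the count was 576 with 12 unbound libraries, 2042 with 6 libraries, 970 without the third day 14 mouse and 53 without a filter (42 of the 150 among them); with 1 library left out it was 18 to 57. Median-ratio rescaling gave 187 calls and quantile normalization 129. For 482 genes between day 7 and day 2 it was 1019 with 12 unbound libraries, 1098 with 6 libraries, 856 without the third day 14 mouse and 124 to 369 with 1 library left out. For 1 gene between day 14 and day 7 it was 11 with 12 unbound libraries, 10 without a filter, 2 after quantile normalization, 0 with 6 libraries, after median-ratio rescaling and with the replicate block, and 0 to 2 with 1 library left out. For 20 genes in the interaction it was 913 with the 12 libraries of the 4 groups, 398 without the third day 14 mouse, 722 with the mouse as replicate block, 13 with a pseudocount of 0.1 and 13 without a filter. With 1 library left out it was 3 to 199, the highest without the third sham bound library. The cause was not tested. Deviations from the group means of same-numbered sham and day 7 unbound libraries correlated at -0.07, 0.05 and 0.03, so numbers did not pair these 2 groups. Between day 7 and day 14 unbound libraries the same-numbered values were 0.09, 0.34 and 0.37, and those of different numbers ran from -0.34 to 0.12. A replicate block by number gave 145 calls between day 7 and sham, 111 of them shared with the 150. None of the called genes named for day 7 against sham changed direction under the alternatives run. In the self-test 2-fold changes were mostly missed, so genes without a call may differ.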

Other observations

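Genes of retinoid metabolism, chosen like S100g, Ugt2b37, Lgr4 and Bak1 after their values were seen, moved in both directions. Dhrs3 fell as described, and Retsat, which saturates retinol, fell from 54.4, 97.7 and 65.0 RPKM in sham to 23.6, 18.8 and 16.01 RPKM at day 7 (log2 fold -1.84, adjusted p = 0.0312 in limma). Cyp26b1, which breaks down retinoic acid, fell from 2.87, 2.72 and 0.604 RPKM to 0.0677, 0.247 and 0.206 RPKM (adjusted p = 0.0496). Aldh1a2, which makes retinoic acid, rose from 5.79, 3.13 and 1.79 RPKM to 27.9, 15.8 and 46.3 RPKM (log2 fold 2.90, adjusted p = 0.0496). In these 4 genes the day 7 values did not overlap with sham. Stra6, a retinol transporter, had a log2 fold of 1.89 and did not pass (adjusted p = 0.0621). With 1 of the 6 libraries left out, Dhrs3, Retsat and Aldh1a2 passed in 0 of the 6 fits and Cyp26b1 in 1. The highest adjusted p was 0.147 for Dhrs3, 0.188 for Retsat, 0.213 for Cyp26b1 and 0.289 for Aldh1a2.

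S100g, the vitamin D-dependent calcium buffer calbindin-D9k, was at 1193, 990.1 and 1134 RPKM in sham, 812, 695 and 1364 RPKM at day 2 and 3722, 4851 and 3744 RPKM at day 7. It rose against sham (log2 fold 1.89, adjusted p = 0.0136, at most 0.0718 with 1 library left out) and against day 2 (log2 fold 2.15, adjusted p = 0.00241). Calb1, the larger calbindin of the distal nephron, was at 61.0, 91.5 and 96.3 RPKM in sham and 128, 189.7 and 115 RPKM at day 7 without passing (adjusted p = 0.34). Cyp27b1, which activates vitamin D, was at 7.42, 0.646 and 1.53 RPKM in sham and 14.7, 6.04 and 18.5 RPKM at day 7 (adjusted p = 0.106). Cyp24a1, which degrades it, had 171, 156 and 256 RPKM at day 2 and 12.8, 17.9 and 34.9 RPKM at day 7 (log2 fold of day 7 against day 2 -3.21, adjusted p = 0.00173), and its day 7 values overlapped with the 8.72, 20.7 and 7.15 RPKM of sham. Vdr, the vitamin D receptor, was at 45.1 to 69.0 RPKM in sham and 49.9 to 60.2 RPKM at day 7.

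Ugt2b37, a glucuronosyltransferase with close paralogs, crossed the sham level between the times. It was at 10.8, 13.4 and 8.48 RPKM at day 2, 29.4, 25.9 and 21.8 RPKM in sham and 125, 103 and 74.5 RPKM at day 7 (log2 fold of day 7 against day 2 3.14, adjusted p = 5.56e-06). Lgr4, a receptor for R-spondins that amplifies Wnt signals, had its lowest unbound mean at day 7. Its values were 47.9, 52.0 and 46.9 RPKM in sham, 49.7, 37.3 and 63.6 RPKM at day 2, 24.6, 20.0 and 23.8 RPKM at day 7 and 45.5, 45.1 and 44.3 RPKM at day 14 (adjusted p = 0.0496 against sham, at most 0.188 with 1 library left out, 0.023 against day 2, and 0.982 between day 14 and day 7). Bak1, a pore-forming cell death protein, went from 3.16, 2.82 and 2.28 RPKM to 10.6, 10.6 and 10.9 RPKM, the day 7 kidneys being almost level (log2 fold 1.79, adjusted p = 0.00622, at most 0.0513 with 1 library left out).

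The cytochrome P450 list had the lowest median of the 45 lists, -0.72 over 20 tested genes, of which Cyp2d9 fell and none rose (2 higher and 4 lower without the third day 14 mouse, against 6.38% and 0.685% of all tested genes). In 9 of them the day 7 libraries lay wholly below sham, against 7.63% of all tested genes. The sum went from between 2441 and 3967 RPKM to between 1439 and 2124 RPKM. Several of these genes have close paralogs that can share reads. None of 30 oxidative phosphorylation, 21 glycolysis, 24 TGF-beta and BMP or 23 unfolded protein response genes passed. Without the third day 14 mouse 2 glycolysis, 3 TGF-beta and BMP and 1 unfolded protein response gene were higher, and no gene of these lists was lower. In that fit 6.38% of all tested genes were higher, so such small counts say little about these lists.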
